A study of Mus musculus with 6 samples.

Results

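The genes described here are the 10 that encode the mouse MHC class II presentation machinery, chosen by their names in the scanner files: the chains H2-Aa, H2-Ab1, H2-Eb1 and H2-Eb2, the DM chains H2-DMa and H2-DMb1, the DO chains H2-Oa and H2-Ob, and Cd74 and Ciita. They were read by 11 of 39429 non-control probes, and all 10 were among the 23674 genes tested. The samples were total RNA from ear skin of 3 mice deficient in NC16A (KO, numbered 1, 2 and 7 in the labels) and 3 NC16A-sufficient mice (WT, numbered 1, 2 and 3), with 1 one-colour array per mouse and no treatment named. NC16A is a segment of BP180, the collagen XVII of the junction between epidermis and dermis; age and sex were matched between the groups, as the design text states, and the labels used here name neither strain nor ages. They also do not say how the deficiency was made or what promoter or allele it rests on. Separate mice are 1 array each, so p-values rest on the spread between these mice. That spread includes any difference between the slides that held the arrays.

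MHC class II molecules are pairs of an alpha and a beta chain that show peptides to CD4 T cells. In mice the classical molecules are I-A (from H2-Aa and H2-Ab1) and I-E (whose beta chain comes from H2-Eb1). They assemble in the endoplasmic reticulum with the invariant chain, Cd74, which is cut down in endosomes to a fragment that DM removes in exchange for peptide, while DO restrains DM. Ciita encodes the transactivator that switches these genes on by joining a protein complex on their promoters. In skin, Langerhans cells, dermal dendritic cells and macrophages carry class II, and keratinocytes can gain it under interferon gamma.

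In the KO ears the class II genes did not differ from WT in one direction: the alpha chain genes H2-Aa and H2-DMa had lower signal on each KO array than on each WT array, H2-Eb2 had higher signal on each KO array, and the other 7 overlapped between the groups. None of the 10 passed the test. Of all genes tested, 2.37% passed (limma, adjusted p under 0.05), 1.98% higher in KO and 0.389% lower, and 3 members had an unadjusted p under 0.05, against 26.6% of all genes. The 3 of 10 members whose groups did not overlap compare with 35.4% of all genes, so their share was near the background. In 8 of 10 members the difference was above 0, against 55.1% of all genes, and the members' median difference was 0.16, against 0.05 over all genes.

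Values are log2 of the probe's signal minus the array's 75th percentile, and differences are KO minus WT with the standard error of the fit (SE), from 3 mice per group. Levels are not compared between probes. Between 72.6% and 78.2% of the spots of an array were well above background, and all probes of the 10 genes were so on all 6 arrays. The 75th percentile was 3813 to 4417 intensity units on KO arrays and 5288 to 6656 on WT arrays, so the KO arrays were dimmer before scaling. Centring on the array median in place of that percentile lowered the median difference of all genes by 0.14. The 3 WT arrays and KO 1 shared a slide (slide 1), and KO 2 and KO 7 were on another. The keratinocyte gene Krt14 was measured on every array, at 6.26, 6.42 and 6.41 in KO 1, 2 and 7, and 5.70, 5.81 and 6.07 in WT 1, 2 and 3. Col17a1, the gene of BP180, had 4.48, 4.31 and 4.10 in KO 1, 2 and 7, and 4.41, 4.39 and 4.47 in WT 1, 2 and 3; where its probe lies relative to NC16A was not looked up, so it checks no label.

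The probes of H2-Aa and H2-DMa are shown because these members had the lower KO signal, and that of H2-Ob because its other probe gave a difference of the opposite sign. They are printed 5′ to 3′ in lower case, from the scanner files, with positions on mm9, and the exons they lie in were not looked up. H2-Aa was read at chr17:34421285-34421344 on the minus strand, H2-DMa at chr17:34274300-34274863 and H2-Ob at chr17:34380481-34380849, both on the plus strand. The H2-DMa and H2-Ob spans, 564 and 369 bases for a probe of 60, are longer than the probe, whose bases are thus split over the genome.
H2-Aa probe: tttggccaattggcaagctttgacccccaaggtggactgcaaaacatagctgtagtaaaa
H2-DMa probe: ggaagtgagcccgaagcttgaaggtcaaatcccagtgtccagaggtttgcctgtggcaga
H2-Ob probe: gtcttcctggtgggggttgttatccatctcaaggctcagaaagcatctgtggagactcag

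Class II promoters are known for an X box, bound by the RFX factors, followed by a Y box, bound by NF-Y. RefSeq promoters (GRCm38.p6) were found for 7 of the 10 genes, in 8 entries, with H2-Ab1, Cd74 and Ciita without an entry. The 150 bases before the start were searched on both strands for the X box, whose matches are the first capitals in H2-Eb1, H2-Eb2 and H2-DMb1, and for GATTGG, as a Y box. No X and Y match overlapped in the members' promoters. The Y letters were present for 6 of the 7 genes, against 10.9% of 32851 promoter entries, and the X letters for 4 genes, against 0.444%. Both were present for 4 genes, against 0.0548% of entries. Since these boxes are known from class II promoters, a higher share among the members was set in advance and tests nothing. Members were counted by gene and the background by entry. In H2-Eb1 and H2-Eb2 the X and Y letters were 21 bases apart, in H2-DMb1 22 and in H2-Oa 86. The stretches of 5 genes are shown to set the 2 genes with lower KO signal beside 3 others, with the matched letters in capitals. H2-Ob, not shown, had a difference above 0 in the main fit. Like H2-Aa, its promoter held the Y letters and not the X letters. H2-Aa lies at chr17:34287824-34287973 on the minus strand, and on the plus strand lie H2-DMa at chr17:34122682-34122831, H2-Eb1 at chr17:34305717-34305866, H2-Eb2 at chr17:34325525-34325674 and H2-DMb1 at chr17:34153041-34153190. A match is a string of letters and not a bound site, and the absence of a match says only that these letters are not in the window.
H2-Aa promoter: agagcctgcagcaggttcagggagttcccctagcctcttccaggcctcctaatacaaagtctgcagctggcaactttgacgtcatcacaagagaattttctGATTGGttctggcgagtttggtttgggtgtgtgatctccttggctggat
H2-DMa promoter: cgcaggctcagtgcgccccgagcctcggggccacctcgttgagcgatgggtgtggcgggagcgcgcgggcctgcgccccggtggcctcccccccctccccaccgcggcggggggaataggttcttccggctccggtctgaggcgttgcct
H2-Eb1 promoter: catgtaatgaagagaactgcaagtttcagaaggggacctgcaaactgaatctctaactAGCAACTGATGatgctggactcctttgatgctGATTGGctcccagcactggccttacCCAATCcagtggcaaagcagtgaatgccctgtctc
H2-Eb2 promoter: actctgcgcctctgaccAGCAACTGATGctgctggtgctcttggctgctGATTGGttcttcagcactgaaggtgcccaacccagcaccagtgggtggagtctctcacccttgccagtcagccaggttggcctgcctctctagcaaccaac
H2-DMb1 promoter: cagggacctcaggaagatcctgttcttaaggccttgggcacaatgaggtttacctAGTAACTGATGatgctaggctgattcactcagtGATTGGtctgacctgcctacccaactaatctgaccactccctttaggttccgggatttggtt

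The H2-DMa stretch shown is one of 2 entries for that gene, and neither held either set of letters. The stretch shown is 76% G and C and the other entry 32%, against 50.7% for H2-Aa.

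Among the classical chains, H2-Aa, the alpha chain of I-A, had the largest difference. Its log2 signal was 0.89, 1.29 and 1.13 in KO 1, 2 and 7, and 2.33, 1.73 and 1.99 in WT 1, 2 and 3. Before scaling this was 8183, 10171 and 8306 intensity units on the KO arrays, and 33496, 17507 and 21953 on the WT arrays. The highest KO array was below the lowest WT array. The means were 1.10 ± 0.20 in KO and 2.02 ± 0.30 in WT (SD, n = 3 each), a difference of -0.92 ± 0.20 (SE) with a 95% confidence interval from -1.39 to -0.45, or 1.89-fold lower in KO. It did not pass (limma adjusted p = 0.067). Class II alleles differ between mouse strains and the strain is not named, so whether this probe reads the allele of each mouse equally was not tested. It was the only member to pass under any setting: with normexp background correction the difference was -1.02 (limma adjusted p = 0.016). Within slide 1 the difference was -1.13, and with slide as a block the limma adjusted p was 0.30. Of all genes tested, 10.6% had a larger difference in either direction.

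H2-Ab1, the beta chain that pairs with H2-Aa, differed by 0.13 ± 0.20 (SE), with an interval from -0.36 to 0.62 (limma adjusted p = 0.69). Its log2 signal was 5.73, 5.68 and 6.31 in KO 1, 2 and 7, and 5.62, 5.79 and 5.92 in WT 1, 2 and 3. KO 7 was the highest array and the other 2 KO arrays lay among the WT arrays. Its interval does not reach the H2-Aa difference of -0.92.

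H2-Eb1, the beta chain of I-E, differed by 0.13 ± 0.18 (SE), with an interval from -0.29 to 0.56 (limma adjusted p = 0.64). It had 5.05, 5.44 and 5.56 in KO 1, 2 and 7, and 5.06, 5.20 and 5.39 in WT 1, 2 and 3. The groups overlapped, with KO 1 and WT 1 the lowest. The sign of both beta chain differences turned under quantile normalization (-0.17 for H2-Ab1 and -0.11 for H2-Eb1) and within slide 1 (-0.05 and -0.16). The I-E alpha chain gene H2-Ea, which the reference annotation lists as a transcribed pseudogene, was not well above background on any of the 6 arrays and was not tested.

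H2-Eb2, a second E beta gene, was dim but measured, at 70.6, 78.8 and 84.9 intensity units in KO 1, 2 and 7, and 90.04, 52.2 and 58.2 in WT 1, 2 and 3. After scaling it had -5.97, -5.72 and -5.49 in KO 1, 2 and 7, and -6.21, -6.66 and -6.57 in WT 1, 2 and 3. All KO arrays were then above all WT arrays, though before scaling WT 1 was the brightest of the 6. The difference was 0.75 ± 0.19 (SE), or 1.68-fold, with an interval from 0.30 to 1.20 (limma adjusted p = 0.088). Within slide 1 it was 0.51, and with slide as a block the limma adjusted p was 0.72.

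**Figure D1:**
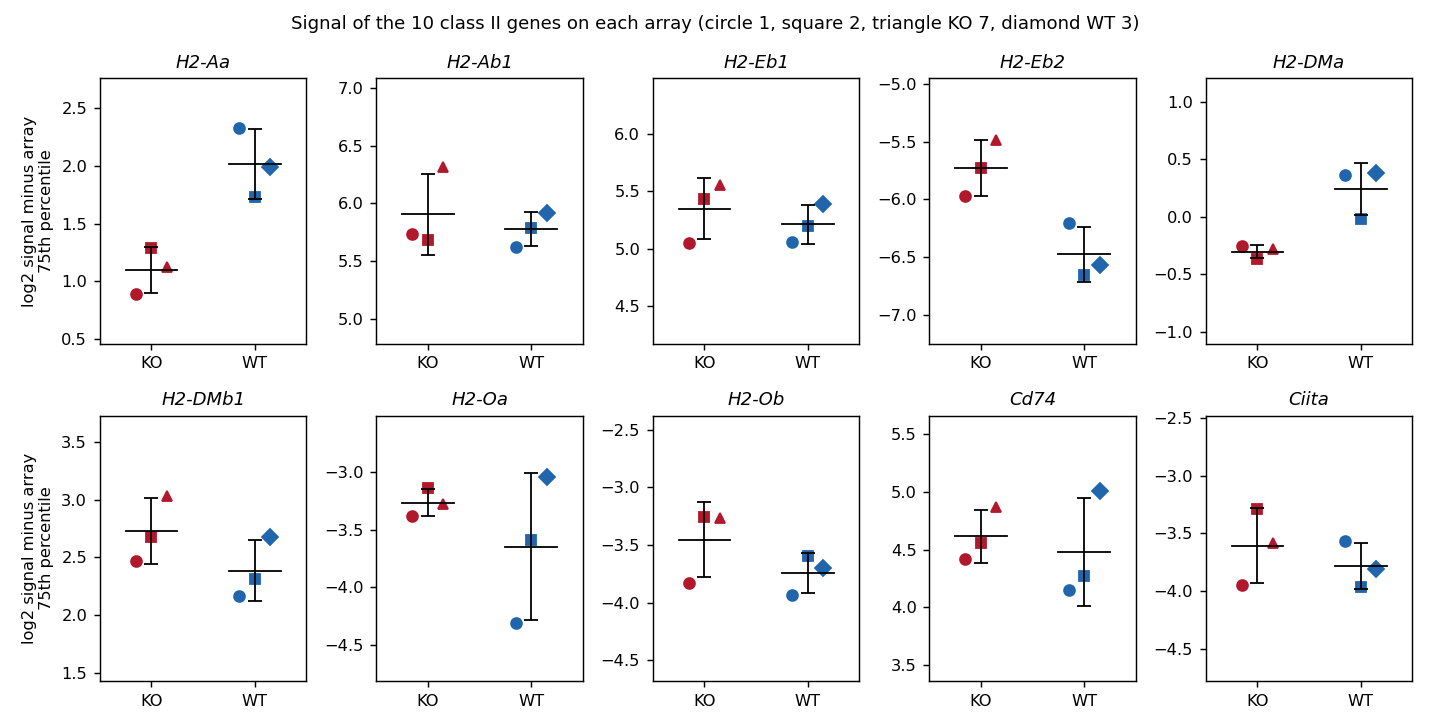
Log2 signal minus the array's 75th percentile (vertical axis, the same span in each panel) for the 10 class II genes on each KO (red, left) and WT (blue, right) array; black lines are the group mean and bars 1 SD (n = 3). H2-Aa and H2-DMa lie lower on all 3 KO arrays, H2-Eb2 higher, and the groups overlap in the other 7 panels.

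In the DM pair, H2-DMa, the alpha chain of the peptide exchange factor, was the other gene whose KO arrays all lay below the WT arrays. It had -0.26, -0.37 and -0.28 in KO 1, 2 and 7, and 0.36, -0.01 and 0.38 in WT 1, 2 and 3. The KO values spread little (SD 0.058, n = 3) beside the WT values (SD 0.22, n = 3). The difference was -0.54 ± 0.15 (SE), or 1.46-fold lower in KO, with an interval from -0.91 to -0.18 (limma adjusted p = 0.10). Within slide 1 it was -0.50, and with slide as a block the limma adjusted p was 0.69.

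H2-DMb1, the beta chain of DM, differed by 0.34 ± 0.21 (SE), with an interval from -0.15 to 0.84 (limma adjusted p = 0.31). It had 2.47, 2.68 and 3.04 in KO 1, 2 and 7, and 2.17, 2.31 and 2.68 in WT 1, 2 and 3. KO 7 was the highest array, KO 2 and WT 3 were level at 2.68, and within slide 1 the difference was 0.09. The neighbouring beta gene H2-DMb2, which is close in sequence to H2-DMb1 and is no member, differed by -0.48 ± 0.27 (SE) in the fit of single probes (limma adjusted p = 0.28). Whether the probe of 1 of these genes also reads the other was not tested.

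In the DO pair, the inhibitor of DM, both genes had overlapping groups. H2-Oa, the alpha chain, had -3.38, -3.14 and -3.28 in KO 1, 2 and 7, and -4.31, -3.59 and -3.04 in WT 1, 2 and 3. The WT arrays spanned a wider range (SD 0.64, n = 3) than the KO arrays (SD 0.12, n = 3), with WT 1 the lowest and WT 3 the highest of all 6. The difference was 0.38 ± 0.31 (SE), with an interval from -0.36 to 1.13 (limma adjusted p = 0.44). H2-Ob, the beta chain, had -3.83, -3.26 and -3.26 in KO 1, 2 and 7, and -3.93, -3.60 and -3.70 in WT 1, 2 and 3. KO 1 lay between WT arrays and the other 2 KO arrays above them. Its difference was 0.29 ± 0.20 (SE; limma adjusted p = 0.37), and its second probe gave -0.10 ± 0.15 (limma adjusted p = 0.69), so its direction depends on the probe.

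Cd74, the invariant chain that the classical molecules bind on their way to the endosome, had 4.42, 4.56 and 4.87 in KO 1, 2 and 7, and 4.15, 4.27 and 5.01 in WT 1, 2 and 3. WT 3 was the highest array and WT 1 the lowest, so the WT range enclosed all KO values. The difference was 0.14 ± 0.26 (SE), with an interval from -0.48 to 0.76 (limma adjusted p = 0.74), and it was -0.06 within slide 1.

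Ciita, the transactivator, had -3.95, -3.29 and -3.58 in KO 1, 2 and 7, and -3.57, -3.97 and -3.81 in WT 1, 2 and 3. The groups overlapped, and the difference was 0.18 ± 0.21 (SE), with an interval from -0.32 to 0.67 (limma adjusted p = 0.60). Its probe, at chr16:10526568-10526627 of mm9, is 65% adenine, which sets it apart from the other 10 member probes, at 20% to 36.7%. A further pair of probes is named Gm9475 in the scanner files, a name that RefSeq gives as a synonym of Ciita, and lies outside the naming rule. The first gave -4.75, -4.46 and -3.83 in KO 1, 2 and 7, and -6.57, -6.79 and -5.55 in WT 1, 2 and 3, a difference of 1.96 ± 0.38 (SE; limma adjusted p = 0.056). The second gave -4.89, -4.77 and -4.65 in KO 1, 2 and 7, and -5.16, -5.19 and -5.22 in WT 1, 2 and 3. Its difference was 0.42 ± 0.13 (SE; limma adjusted p = 0.12). On both, every KO array was above every WT array, as in 21.4% of all genes tested. Over the 6 arrays the 3 probes thus had the same sign and different sizes, and none passed. The mean of the 3 gave 0.85 for Ciita (limma adjusted p = 0.072). Within slide 1 the Gm9475 probes gave 1.56 and 0.30, and the probe named Ciita gave -0.16.

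**Figure D2:**
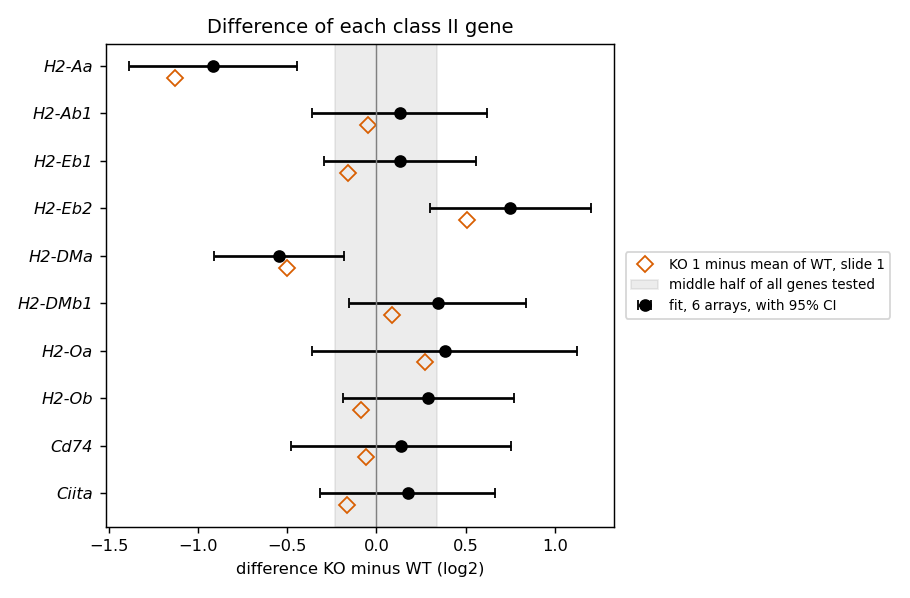
Difference KO minus WT (log2, horizontal axis) for each class II gene: black points are the fit over 6 arrays with 95% confidence intervals, open orange diamonds are KO 1 minus the mean of the 3 WT arrays of the same slide, and the grey band holds the middle 50% of all genes tested (-0.23 to 0.34). H2-Aa, H2-DMa and H2-Eb2 have intervals that exclude 0 and diamonds on the same side; 5 others have diamonds below 0 beside fitted values above 0.

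Slide 1 alone set KO 1 against the 3 WT arrays and turned the balance of signs. There 3 members were higher and 7 lower in KO 1, with a median of -0.07. The 5 that turned were H2-Ab1, H2-Eb1, H2-Ob, Cd74 and Ciita, whose slide 1 differences lay between -0.16 and -0.05. KO 1 was the lowest of the 3 KO arrays for 8 of 10 members and KO 7 the highest for 5. With slide as a block the members' limma adjusted p lay between 0.30 and 0.99.

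As groups, the classical chains did not part from the DM and DO chains beyond the spread between mice. Each gene was set to its WT mean and the 4 genes of each group were averaged. The classical chains then gave -0.21, 0.04 and 0.24 in KO 1, 2 and 7, and 0.07, -0.12 and 0.05 in WT 1, 2 and 3. The DM and DO chains gave -0.06, 0.17 and 0.24 in KO 1, 2 and 7, and -0.24, -0.03 and 0.27 in WT 1, 2 and 3. In both groups KO 7 was the highest KO array and KO 1 the lowest. Classical minus DM and DO was -0.15, -0.13 and 0.00042 in KO 1, 2 and 7, and 0.31, -0.09 and -0.22 in WT 1, 2 and 3. The KO arrays lay inside the WT range, and the means of -0.09 ± 0.08 in KO and 0 in WT, with an SD of 0.27, differed by less than the spread of the WT mice (n = 3 each). Both averages hold 1 alpha chain with a difference below 0 (H2-Aa, H2-DMa) and 3 chains with differences above 0.

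The alpha and beta chains of 1 molecule, each set to its WT mean, stood apart in I-A and, with H2-DMb1 as beta chain, in DM. In DO they did not. H2-Aa minus H2-Ab1 was -1.08, -0.63 and -1.43 in KO 1, 2 and 7, and 0.47, -0.30 and -0.17 in WT 1, 2 and 3. H2-DMa minus H2-DMb1 was -0.58, -0.90 and -1.18 in KO 1, 2 and 7, and 0.34, -0.18 and -0.15 in WT 1, 2 and 3. In both pairs the highest KO array was below the lowest WT array. Of single genes tested, 35.4% did not overlap between the groups, and no such share was taken over pairs. The neighbouring beta gene H2-DMb2, not used for the DM pair, differed by -0.48, near H2-DMa at -0.54, so the DM result is for H2-DMb1 only. H2-Oa minus H2-Ob was 0.36, 0.02 and -0.11 in KO 1, 2 and 7, inside the range of the WT arrays at -0.47, -0.09 and 0.56. These pairs were compared after the values were seen, and the difference between the chains was not tested.

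**Figure D3:**
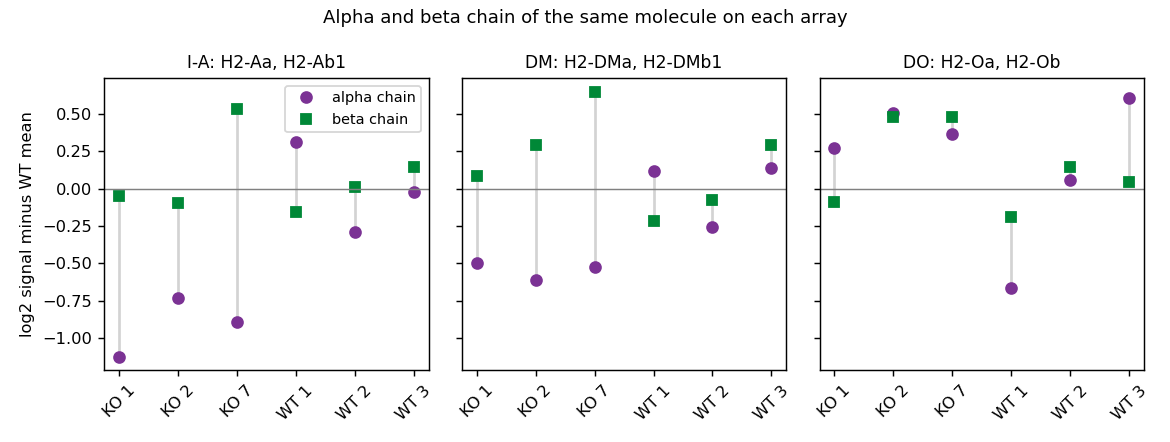
Log2 signal minus the gene's WT mean (vertical axis) for the alpha chain (purple circles) and beta chain (green squares) of I-A, DM and DO on each array, joined by a grey line. The DM beta chain shown is H2-DMb1. In I-A and DM the alpha chain lies below the beta chain on all 3 KO arrays, by 0.58 to 1.43, and in DO the chains cross over.

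Over the 6 arrays, each gene centred on its own mean, the members were compared by the root mean square distance between their log2 values. H2-Eb1 was nearest to H2-Ob (0.13) and H2-DMb1 (0.14), and Cd74 to H2-DMb1 (0.16). H2-Aa was nearest to H2-DMa (0.26), and its distance to each other member was 0.55 or more. H2-Eb2 was no nearer than 0.33 to any member (H2-DMb1). The 6 genes outside the set that came nearest to the mean profile of H2-Aa, H2-Ab1, H2-Eb1 and Cd74 were Tet1, Rasl11b, Irf5, Adam12, Snx33 and Tex19.1, at distances of 0.032 to 0.062. The same distance was 0.15 for H2-Eb1 and 0.46 for H2-Aa, and 0.30 for the median gene. That profile averages H2-Aa, with a difference below 0, and 3 genes with differences above 0, and the KO minus WT differences of the 6 genes were between -0.17 and -0.07.

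The steps around the class II molecule were described by 14 lists of 149 genes, of which 142 were measured. Factors that bind class II promoters or govern class II turnover had 10 measured genes, none of which passed. Their median was -0.04 (0.017 without KO 1 and -0.18 with array median centring). The smallest p values among them were those of the ubiquitin ligase gene Marchf8 (-0.26 ± 0.13, limma adjusted p = 0.26) and the NF-Y subunit gene Nfyb (-0.29 ± 0.16, limma adjusted p = 0.27). Genes of endosomal protein breakdown and its control, the thiol reductase gene among them, had a median of 0.13 over 10 genes. None passed, and the median was 0.0067 within slide 1 and -0.024 under quantile normalization. Ctsd, the cathepsin D gene (0.50 ± 0.16, limma adjusted p = 0.12), and the legumain gene Lgmn (0.50 ± 0.23, limma adjusted p = 0.22) had the smallest p values.

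Interferon gamma signalling genes had a median of 0.42, with 11 of 13 above 0 and 8 of 13 without overlap between groups, 6 of them higher in KO. Of all genes tested, 55.1% were above 0, 35.4% did not overlap and 21.4% did so with KO higher. None of the 13 passed. The chemokine gene Cxcl10, an interferon target, had -0.76, -1.13 and -0.36 in KO 1, 2 and 7, and -2.02, -1.88 and -1.67 in WT 1, 2 and 3. Its difference was 1.11 ± 0.22 (SE), or 1.10 within slide 1 (limma adjusted p = 0.056). Cxcl9, another, differed by 1.23 ± 0.33 (limma adjusted p = 0.099), and Ifng itself by 0.89 ± 0.34 (limma adjusted p = 0.17). Class I presentation genes had a median of 0.21 over 15 genes with none past the threshold (0.072 with array median centring), and the 2 smallest p values were those of the peptide transporter gene Tap2 (0.62 ± 0.21, limma adjusted p = 0.14) and the proteasome activator gene Psme2 (0.41 ± 0.15, limma adjusted p = 0.15).

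Costimulatory genes of presenting cells had a median of 0.59, with 8 of 8 above 0, and 1 of them rose. The median was 0.28 without KO 7 and 0.19 within slide 1, where 7 of 8 were above 0. The gene that rose was Tnfsf18, whose product is the ligand of GITR, a costimulatory receptor on T cells. It had -3.97, -4.02 and -4.24 in KO 1, 2 and 7, and -5.19, -5.31 and -5.10 in WT 1, 2 and 3. All KO arrays were above all WT arrays, and the difference was 1.12 ± 0.14 (SE; limma adjusted p = 0.012). It passed in 4 of 6 fits without 1 mouse (highest limma adjusted p = 0.076), and with slide as a block it did not (limma adjusted p = 0.099; 1.23 within slide 1). Cd40, the receptor that T cells engage on presenting cells, differed by 0.65 ± 0.25 (limma adjusted p = 0.17).

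Of the marker lists for cells that carry class II, dendritic and B cells had medians above 0, and Langerhans cells and macrophages below 0, in the fit over 6 arrays. In bulk skin, fewer cells of a type and less RNA per cell cannot be told apart. The median over 14 dendritic cell markers was 0.31 with none past the threshold, and it was 0.046 within slide 1, with 8 of 14 above 0. The smallest p values were those of Ccr7, the receptor of migrating dendritic cells, at 1.03 ± 0.30 (limma adjusted p = 0.11) and the factor gene Irf4 at -0.92 ± 0.25 (limma adjusted p = 0.10). The list's mean relative to WT was 0.07 to 0.47 on KO arrays and -0.22 to 0.24 on WT arrays. The 5 measured Langerhans cell markers had a median difference of -0.39, or -0.26 on slide 1 alone. Of the 5, 4 lay below 0 and 1 above, which was Epcam at 0.08 (limma adjusted p = 0.78). Their mean was -0.76 to -0.26 on KO arrays against -0.08 to 0.06 on WT arrays. Their defining gene Cd207 (langerin) had 0.24, 0.27 and -0.26 in KO 1, 2 and 7, and 0.63, 0.23 and 0.56 in WT 1, 2 and 3, and differed by -0.39 ± 0.20 (limma adjusted p = 0.24). Cldn1, which the epidermis also makes, differed by -1.05 ± 0.30 (limma adjusted p = 0.11), and Ly75 was not well above background on any array.

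The 13 measured monocyte and macrophage markers had a median of -0.13, with 9 below 0 and 4 above, and none passed. The median was -0.31 within slide 1 and -0.02 without KO 2. The lysosomal gene Cd68 differed by -1.05 ± 0.29 (limma adjusted p = 0.10) and the lysozyme gene Lyz2 by -1.41 ± 0.45 (limma adjusted p = 0.13), while the receptor gene Csf1r differed by -0.13 ± 0.23 (limma adjusted p = 0.73). The 4 above 0 were Ccr2 (0.53), Maf (0.51, with all KO arrays above all WT arrays), Fcgr1 (0.50) and C1qc (0.25). The list's mean relative to WT was -0.51 to 0.15 on KO arrays and -0.15 to 0.23 on WT arrays. B cell markers had a median of 0.77 over 9 measured genes with none past the threshold, and a mean of 0.67 to 0.88 on KO arrays against -0.02 to 0.01 on WT arrays. Blk, a kinase gene, differed by 2.25 ± 0.52 (limma adjusted p = 0.075) and the complement receptor gene Cr2 by 1.26 ± 0.38 (limma adjusted p = 0.12). Blk had -4.01, -6.17 and -5.52 in KO 1, 2 and 7, and -7.49, -7.67 and -7.30 in WT 1, 2 and 3, and passed in 1 of 6 fits without 1 mouse. With slide as a block, where KO 1 is the only KO array set against WT, its difference was 3.47. Within slide 1 the B cell list's median was 0.48. The defining B cell gene Ms4a1 was well above background on only 2 arrays. The part of these cell types in the class II values was not tested.

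T cell markers, from the cells that read class II, had a median of 0.41 with 10 of 10 above 0 and none past the threshold. Within slide 1 the median was 0.10, with 6 of 10 above 0. Their smallest p values were those of Cd3g (0.48 ± 0.15, limma adjusted p = 0.12) and the kinase gene Lck (0.55 ± 0.19, limma adjusted p = 0.15), and Cd4, the class II coreceptor, differed by 0.15 ± 0.24 (limma adjusted p = 0.70). Of 10 measured neutrophil markers 3 rose, which were S100a9 (4.69 ± 0.30, limma adjusted p = 0.0019), S100a8 (4.72 ± 0.35, limma adjusted p = 0.0023) and the chemokine receptor gene Cxcr2 (2.05 ± 0.26, limma adjusted p = 0.015); stressed keratinocytes also make S100a8 and S100a9. Ly6g, another marker, was lower on every KO array (-0.35), and Camp, Ltf and Elane overlapped between the groups, with differences of 0.45, 0.43 and 0.17. Cxcr2 passed in 3 of 6 fits without 1 mouse and not with slide as a block (limma adjusted p = 0.10). The neutrophil list's mean relative to WT was 1.54 to 2.47 on KO arrays and -0.35 to 0.53 on WT arrays, and its part in the class II values was not tested.

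Mast cell and eosinophil markers had a median of -0.08 (8 measured), which was -0.33 within slide 1 and 0.12 without KO 1, with Siglecf at -0.70 ± 0.28 (limma adjusted p = 0.18) and Tpsb2 at 0.90 ± 0.41 (limma adjusted p = 0.21). Keratinocyte markers had a median of 0.32 (8 measured), which was -0.027 under quantile normalization, 0.13 with the mean of a gene's probes and 0.15 within slide 1. Among them Dsg1a was at -0.64, with Krt1 at 1.16 ± 0.29 (limma adjusted p = 0.087) and Krt5 at 0.54 ± 0.15 (limma adjusted p = 0.10). Fibroblast and endothelial markers had a median of 0.42 (9 measured), which was 0.15 without KO 7, 0.16 within slide 1 and 0.14 under quantile normalization, with Col1a2 at 0.67 ± 0.19 (limma adjusted p = 0.11) and Col1a1 at 0.54 ± 0.19 (limma adjusted p = 0.14). No gene of these 3 lists passed.

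**Figure D4:**
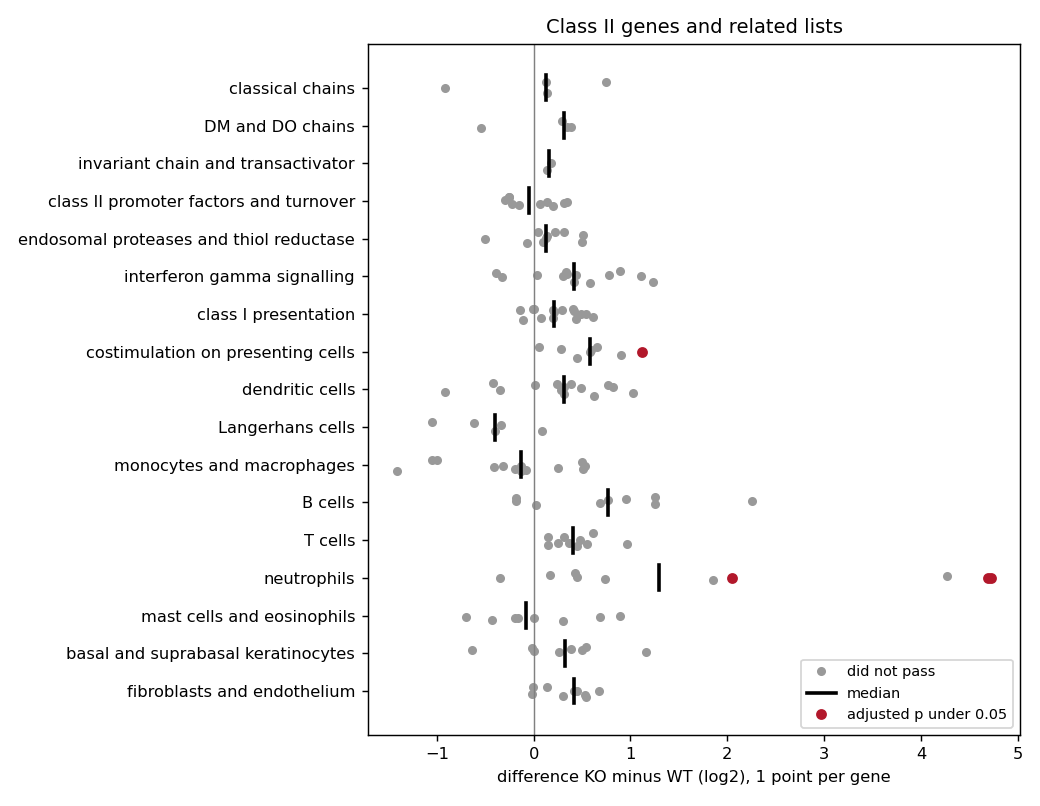
Difference KO minus WT (log2, horizontal axis) for each measured gene of the class II groups (top 3 rows) and the 14 related lists; grey points did not pass, red points had an adjusted p under 0.05 and black bars are list medians. The 4 red points are Tnfsf18 among the costimulatory genes and Cxcr2, S100a9 and S100a8 among the neutrophil markers.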

How the data were processed

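Total RNA of 6 ears was measured on 6 one-colour arrays. The deposited scanner files hold an intensity per spot, made by the authors with Agilent Feature Extraction 10.7.3.1 (design 026655, positions on mm9), background-subtracted and detrended; per the file headers, arrays were not normalized against each other. In the series matrix all 43340 features of each array equal that signal. No spot was saturated.

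Outlier spots (170 to 249 per array) were left out, spots of a probe averaged, and 40 of 39429 probes without a value on some array dropped. Values are log2 minus the array's 75th percentile. A filter (above background on 3 arrays or more) left 29601 probes, and the brightest stood for each of 23674 genes. Names came from RefSeq (GRCm38.p6) through an accession for 26055 probes, a symbol for 3196 or a synonym for 940, while 9238 kept the file's. Groups were compared with limma 3.58.1 (R 4.3.3; lmFit, eBayes, two-sided, 4 residual and 2.64 prior degrees of freedom), with Benjamini-Hochberg adjustment over all genes. Nothing in the labels ties a mouse to a litter, and the number of arrays limits the precision. The scripts used Python 3.11.15 and pandas 2.3.3, and the fit was tested on simulated data.

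The members and lists were chosen with earlier results of these data known. Named list genes are up to 3 past the threshold, otherwise those 2 of smallest p. Ifng, Cd207, Epcam, Csf1r, Maf, Ccr2, Fcgr1, C1qc, Cd4, Ly6g, Camp, Ltf, Elane, Dsg1a and Krt14 were added after their values were seen. Some items are not reported here. Likeness used the 6 nearest genes. Alternatives covered background, normalization, centring, filters, probes, the series matrix, blocks and each mouse left out.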

Additional observations from a re-analysis of the deposited data

How the results depend on the processing

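Under the 17 refitted alternatives no member passed, except H2-Aa with normexp background, where 1 of 10 passed. The count of all genes past the threshold, 560 here, was 995 with normexp background, 296 with no filter, 168 with slide as a fixed block and 202 to 970 without 1 mouse. Of the related lists, 4 genes passed here and 2 to 6 without 1 mouse. Numbers 1 and 2 occur in both groups, and the labels do not say whether same-numbered mice belong together. Their deviations from the group means correlated by 0.083 and 0.054. Differently numbered mice were not set beside them, so these values do not settle whether the mice were paired. With the replicate block, which left 1 residual degree of freedom, 0 genes passed, and 0 of the related lists; the H2-Ab1 difference was -0.00026. Signs turned under quantile normalization for H2-Ab1 (-0.17), H2-Eb1 (-0.11) and Cd74 (-0.029), and under array median centring for H2-Ab1 (-0.0065) and H2-Eb1 (-0.0026). With slide as a fixed block, and on slide 1 alone, they turned for H2-Ab1 (-0.046), H2-Eb1 (-0.16), H2-Ob (-0.087), Cd74 (-0.056) and Ciita (-0.16), and with its second probe for H2-Ob (-0.096), an alternative added after seeing the data. Without 1 mouse H2-Ab1 ranged from -0.072 (without KO 7) to 0.24 and Cd74 from -0.026 (without WT 1) to 0.41. The cause was not tested. H2-Aa, H2-DMa, H2-Eb2, H2-DMb1 and H2-Oa kept their sign under all alternatives run. Classical minus DM and DO chains ranged from -0.20 to 0.059 without 1 mouse.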
